A study of Mus musculus with 7 samples.

Results

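The signaling lymphocytic activation molecule (SLAM) family of surface receptors was followed in d3 and d7 wound macrophages through its 8 genes Slamf1, Slamf6, Slamf7, Slamf8, Slamf9, Cd48, Cd84 and Ly9, out of 30176 genes that the array annotation names with a single symbol. The members were selected by name, and each had just 1 probe set, so no choice between probe sets was needed. The family was proposed with the d7 against d3 difference of Slamf9 already known. The differences and p-values of the members in that contrast are therefore given as a description of the family, and nothing is read from how many of them passed. The macrophages came from polyvinyl alcohol sponges placed under the dorsal skin of C57BL/6 mice, with no genetic change or further treatment named for either group, and taken out 3 (d3) or 7 days (d7) later. Cells released from the sponges were enriched with CD11b beads and then sorted for F4/80, and their RNA was hybridized to Affymetrix mouse transcriptome arrays, 1 array for each of 3 d3 and 4 d7 biological replicates. Replicate numbers in the labels are 1, 3 and 4 for d3, and 5 to 8 for d7. The study used young adult mice of both sexes, and the age and sex behind each array and any pooling of sponges or animals are not given in the sources used here.

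SLAM receptors belong to the immunoglobulin superfamily. Most of them bind the same receptor on a neighbouring cell, and most carry tyrosine switch motifs in the cytoplasmic tail that recruit the small adaptors SAP and EAT-2, which tip the signal toward activation, or phosphatases, which tip it toward inhibition. Cd48 differs in being held by a lipid anchor and in serving as the ligand of 2B4 (Cd244a), whereas Slamf8 and Slamf9 have short tails without the switch motif. Macrophages are known to use family members in bacterial uptake, in control of the phagosome oxidase and in engulfment of other cells.

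The genes lie on mouse chromosome 1, in the order Ly9, Slamf7, Cd48, Slamf1, Cd84, Slamf6, Slamf9 and Slamf8. Promoter windows running from 250 bases before to 50 bases after a transcription start were taken from RefSeq (GRCm38.p6) and found for 7 members, Ly9 being without one. The 250 bases before the start are printed for the 2 members that were lower on d7 by the test given below, Slamf9 and Slamf7, and for Slamf8, whose window held the most matches to the motifs searched. Capitals mark the motif matches named after them. Slamf9 is shown for chr1:172475110-172475359 on the plus strand, Slamf7 for chr1:171649000-171649249 on the minus strand and Slamf8 for chr1:172590569-172590818 on the minus strand, each 5′ to 3′ toward its gene.
Slamf9: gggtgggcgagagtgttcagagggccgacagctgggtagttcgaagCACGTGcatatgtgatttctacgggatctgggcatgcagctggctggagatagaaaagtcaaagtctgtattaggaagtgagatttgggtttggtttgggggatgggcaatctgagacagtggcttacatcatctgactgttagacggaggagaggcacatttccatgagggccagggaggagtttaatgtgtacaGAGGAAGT
Slamf7: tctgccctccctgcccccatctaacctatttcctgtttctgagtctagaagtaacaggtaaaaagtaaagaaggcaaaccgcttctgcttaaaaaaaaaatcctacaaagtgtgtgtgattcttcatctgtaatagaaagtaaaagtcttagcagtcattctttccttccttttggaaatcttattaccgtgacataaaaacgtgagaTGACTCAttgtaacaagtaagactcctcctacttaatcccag
Slamf8: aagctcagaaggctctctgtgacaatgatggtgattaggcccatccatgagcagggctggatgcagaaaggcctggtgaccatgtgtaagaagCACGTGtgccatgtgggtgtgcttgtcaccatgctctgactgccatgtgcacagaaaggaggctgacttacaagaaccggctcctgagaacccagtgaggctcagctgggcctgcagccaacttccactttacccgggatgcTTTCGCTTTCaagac

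Both strands of the windows were searched for 5 motifs, chosen after the sequences had been seen. GAGGAAGT, a site type of PU.1, the transcription factor that macrophages depend on, occurred in 3.2% of all 32851 RefSeq windows and, among the 7 family windows, in that of Slamf9, at bases -8 to -1 before the start. CACGTG, an E-box, occurred in 7.15% of all windows and in those of Slamf9 (-204 to -199) and Slamf8 (-157 to -152). TGANTCA, the site type of AP-1, occurred in 7.81% of all windows and in those of Slamf7 (-42 to -36), Cd84 (-229 to -223) and Slamf8, in the latter after the start (10 to 16). The letters GAAANNGAAA, the core of an interferon-stimulated response element, occurred in 3.44% of all windows and in that of Slamf8, on the strand opposite to the gene (-15 to -6). GGGANTTTCC, a kappa B site type, occurred in 0.411% of all windows and also in that of Slamf8, after its start (37 to 46). None of these matches overlapped another. The windows of Slamf6, Cd48 and Slamf1 held none of the 5. A match describes letters and no binding was measured.

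**Figure D1:**
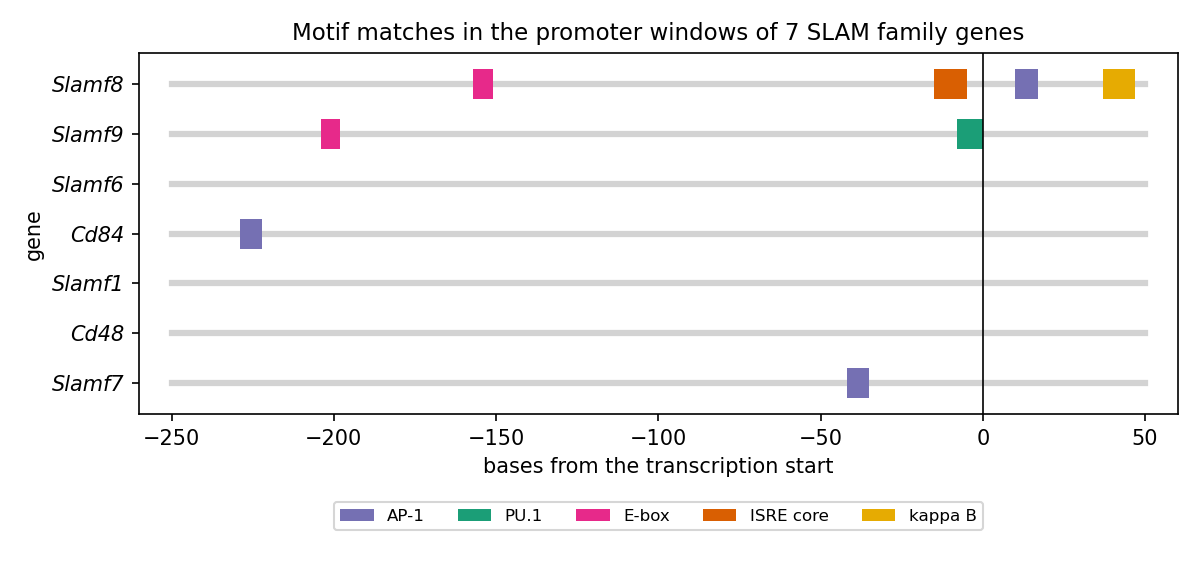
Motif matches in the promoter windows of 7 SLAM family genes, with distance from the transcription start in bases on the x axis, 1 line for each gene and 1 colour for each of 5 motifs. Slamf9 and Slamf8 each hold a match just before the start, of PU.1 and of the interferon-stimulated response element core.

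The deposited values are log2 probe set levels, and array medians ran from 4.14 to 4.22. The brightest antigenomic background probe reached 5.39, taken here as the array background, and 70.02% of the 65956 probe sets tested did not exceed it on average. On d3 replicate 3 the positive controls were dimmer (median 9.78) than on the other 6 arrays (10.01 to 10.09). All 8 measured macrophage markers lay above the background, among them Lyz2, the lysozyme of myeloid cells (means 19.45 on d3 and 19.36 on d7), and Cd68, a lysosomal glycoprotein (17.52 and 17.86). So did all 7 measured monocyte markers, so presence alone does not tell macrophages from monocytes. A probe set's brightness also depends on its probes, so its level is read against the same probe set on other arrays. Where no gene of a list passed, its 2 brightest probe sets are named, an order of brightness and not of transcript amount.

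Among SLAM family genes, 2 were lower on d7 than on d3 by the test. Slamf9 fell by 2.17 and Slamf7 fell by 0.78 on the log2 scale, and none rose. Slamf6 differed by -1.23 on that scale without passing. Slamf8, Cd48, Cd84 and Ly9 were well above the background on both days and did not pass, and Slamf1 lay under the background on every array. The test was limma, its p-values adjusted by Benjamini-Hochberg over the 65956 probe sets. By it 77 probe sets passed (0.117%), of which 35 were lower on d7 (0.0531%). At an unadjusted p under 0.05 the percentage was 7.66% over all probe sets, and 3 members met that limit, all lower. All d3 arrays lay on one side of all d7 arrays for 3 members, all higher on d3, where over all probe sets 6% were apart in either direction and 3.38% had every d3 array above every d7 array. These shares are over all 65956 probe sets, of which 70.02% were at the background, while 7 of the 8 members lay above it. Among the 19774 probe sets above the background, adjusted on their own, 374 passed. The shares over all probe sets are thus not a like yardstick for the members or the lists below. The median difference of the 8 members was -0.05, against -0.001 over all probe sets. The 8 p-values come from the contrast that singled out Slamf9 and are printed as a description.

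**Figure D2:**
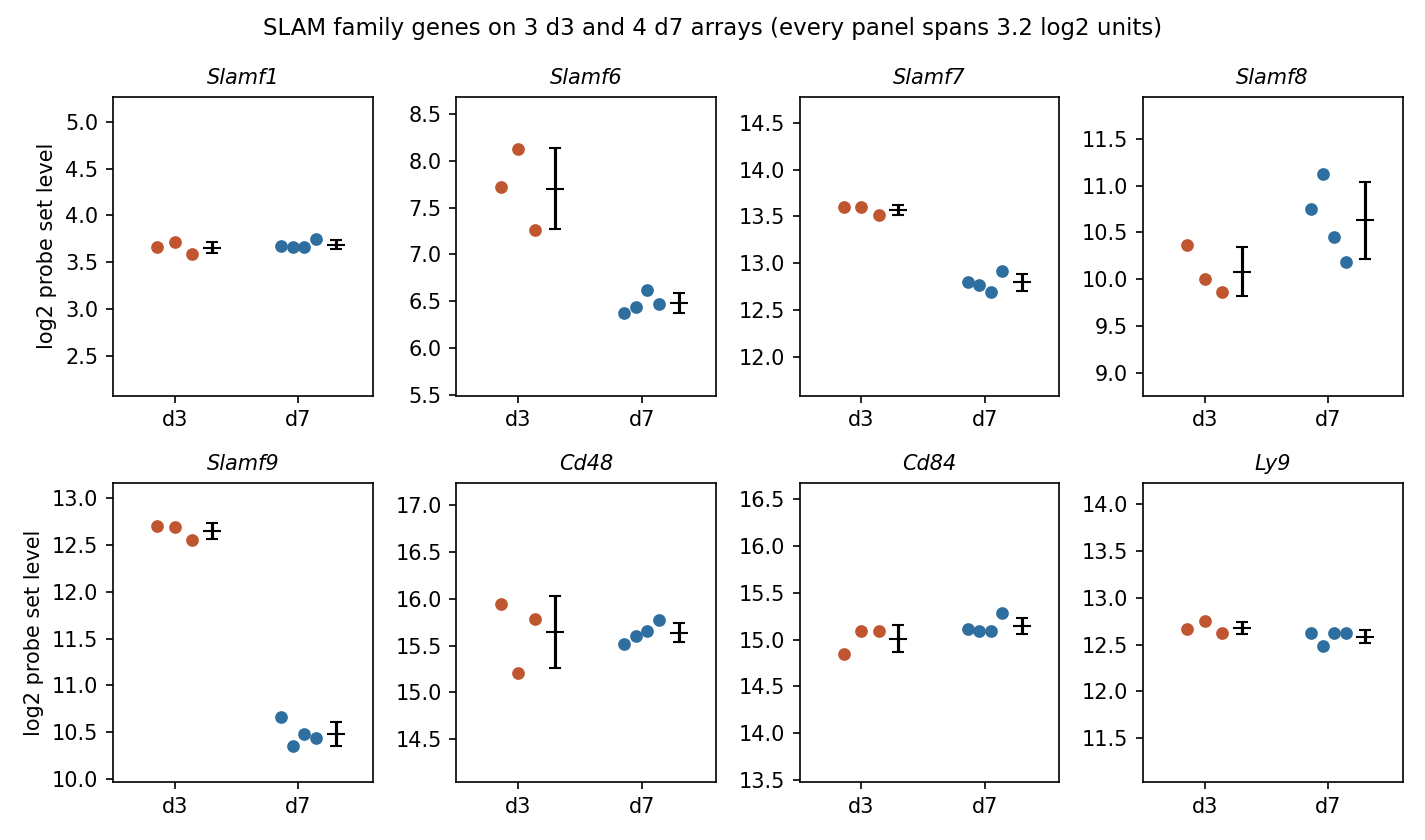
Log2 probe set level of each SLAM family gene (y axis) on 3 d3 and 4 d7 arrays (points), with the group mean and SD beside them as a bar. Every panel spans the same number of log2 units, and the days are apart for Slamf6, Slamf7 and Slamf9 and overlap or touch for the other 5.

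Slamf9 encodes a short-tailed receptor found on macrophages and dendritic cells. It read 12.70, 12.69 and 12.55 on d3 replicates 1, 3 and 4, and 10.66, 10.35, 10.48 and 10.44 on d7 replicates 5, 6, 7 and 8. Every d3 array was above every d7 array, with 1.90 between the lowest d3 and the highest d7 value. The mean went from 12.65 ± 0.08 (SD, n = 3) to 10.48 ± 0.13 (SD, n = 4), a fall of 4.50-fold with a 95% confidence interval of the log2 difference from -2.37 to -1.97 (limma, adjusted p = 0.00492). Of all 65956 probe sets 3 had a smaller p and 44 fell further, and of the genes that passed 3 fell further. On d7 the gene was still above the array background on all 4 arrays. Leaving out 1 array at a time kept the log2 difference between -2.23 and -2.13, while the adjusted p went from 0.0115 to 0.0614, the latter without d7 replicate 8 and over 0.05 only there.

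Slamf7, also called CRACC, is a self-binding receptor that signals through EAT-2 and that macrophages use with the integrin Mac-1 in engulfing blood cell tumours. Its values were 13.60, 13.60 and 13.51 on d3 and 12.80, 12.77, 12.69 and 12.91 on d7. Both groups stood clear of each other, and within each day the arrays spanned far less than the step between the days. The mean went from 13.57 ± 0.05 (SD, n = 3) to 12.79 ± 0.09 (SD, n = 4), 1.72-fold lower on d7 (95% confidence interval of the log2 difference -0.92 to -0.64, adjusted p = 0.0294). This call was not held by most subsets of the arrays. With 1 array left out the difference stayed between -0.82 and -0.75, yet the adjusted p ran from 0.0486 (without d3 replicate 1) to 0.129 (without d7 replicate 6), and was over 0.05 in all subsets but the first.

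Slamf6, or Ly108, is a self-binding receptor known best from T, B and natural killer cells. It read 7.72, 8.13 and 7.26 on d3 and 6.37, 6.44, 6.62 and 6.47 on d7. All d3 arrays were above all d7 arrays, by 0.64 at the narrowest, and the d3 arrays were spread much more widely (7.70 ± 0.43, SD, n = 3) than the d7 arrays (6.48 ± 0.11, SD, n = 4). The log2 difference of -1.23 (95% confidence interval -1.74 to -0.72) had an adjusted p of 0.192 and so did not pass. Its highest value was on d3 replicate 3, the array with the low positive controls, and without that array the difference was -1.01. In the lymphoid lists, 12 of 13 measured T, natural killer and innate lymphoid cell markers were at the background. So were 6 of 7 measured B and plasma cell markers. The exceptions were Il7r (means 10.43 on d3 and 11.28 on d7) and Cd79b (6.32 and 6.40). Whether lymphoid cells contributed to the Slamf6 signal was not tested. Cd3e, a chain of the T cell receptor complex, read 3.74 on each of the 7 arrays. In such sorted bulk samples, fewer cells of a type and less RNA per cell cannot be told apart, which holds for each gene named here.

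Slamf8, the other short-tailed member, restrains the phagosome oxidase in mouse macrophages. It was the member with the highest positive difference, at 10.37, 10 and 9.86 on d3 and 10.75, 11.13, 10.45 and 10.18 on d7. Values of both days overlapped, since d7 replicate 8 was lower than d3 replicate 1. Means were 10.08 ± 0.26 (SD, n = 3) and 10.63 ± 0.41 (SD, n = 4), and the interval of the difference (0.55, 95% confidence interval -0.09 to 1.19) holds 0 (adjusted p = 0.662).

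The remaining 3 expressed members had narrow spreads or overlapping days. Cd48, the lipid-anchored ligand of 2B4 and, in mice, of Cd2, read 15.95, 15.21 and 15.79 on d3 and 15.52, 15.60, 15.66 and 15.77 on d7. Its mean difference was -0.01 (95% confidence interval -0.47 to 0.45), a sign that turned to 0.02 after quantile normalization and to 0.009 with median centring, and the widest spread was among the d3 arrays, where replicate 3 was lowest. Cd84, a self-binding receptor with switch motifs, read 14.84, 15.09 and 15.09 on d3 and 15.11, 15.09, 15.09 and 15.28 on d7. Its values touched between the days at 15.09, and the difference was 0.13 (95% confidence interval -0.07 to 0.34, adjusted p = 0.662). Ly9, also self-binding and carrying switch motifs, read 12.67, 12.75 and 12.62 on d3 and 12.62, 12.48, 12.62 and 12.62 on d7. It differed by -0.10 (95% confidence interval -0.22 to 0.03, adjusted p = 0.662), and its values touched between the days at 12.62.

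Slamf1, the receptor CD150 that recognizes bacterial outer membrane proteins in mouse macrophages, read 3.66, 3.72 and 3.59 on d3 and 3.67, 3.66, 3.66 and 3.75 on d7. All 7 values were under the array background of 5.39, so that its difference of 0.03 (95% confidence interval -0.06 to 0.13) compares background readings and a change of the transcript was not detectable on these arrays.

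The receptor that Cd48 binds, 2B4 (Cd244a), was above the background and read 7.99, 7.57 and 7.41 on d3 and 7.83, 7.90, 7.88 and 7.59 on d7. Values of both days overlapped and the difference of 0.14 (95% confidence interval -0.25 to 0.54) did not pass (adjusted p = 0.736). Cd2, a T cell adhesion receptor and the other mouse partner of Cd48, was at the background (means 4.35 on d3 and 4.32 on d7).

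Of the adaptors, kinases and phosphatases of SLAM signaling, 16 of 19 listed genes were measured and 14 lay above the background. None passed the test in either direction, and the median difference was -0.05. At an unadjusted p under 0.05 there were 1 higher and 5 lower, where 7.66% of all probe sets met that limit. The 2 brightest were Ptpn6, the phosphatase SHP-1, with means of 13.88 on d3 and 13.36 on d7 (difference -0.52, adjusted p = 0.647), and Inpp5d, the lipid phosphatase SHIP-1, with 12.42 and 12.63 (difference 0.21, adjusted p = 0.679). The adaptors are named here after their values were seen. Sh2d1a, which encodes SAP, was at the background on both days (means 3.93 and 3.90). Sh2d1b1, which encodes EAT-2, the adaptor of Slamf7, read 8.34, 8.15 and 7.93 on d3 and 7.28, 7.22, 7.16 and 7.86 on d7. All d3 arrays lay above all d7 arrays, with d7 replicate 8 close to the d3 values, and the difference of -0.76 (95% confidence interval -1.27 to -0.26) did not pass (adjusted p = 0.507). Sh2d1b2, its mouse relative ERT, differed by -0.20 (95% confidence interval -0.40 to -0.01, adjusted p = 0.647).

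The phagosome partners of Slamf1 and Slamf8 comprise the Beclin 1 and Vps34 lipid kinase complex and the NADPH oxidase. All 9 measured of 10 listed genes were above the background and none passed. At an unadjusted p under 0.05, met by 7.66% of all probe sets, 1 was higher and 4 were lower. The lower ones were the oxidase genes Cybb, Cyba, Ncf4 and Rac2, and the higher one was Pik3r4 of the lipid kinase complex. Rac2 fell furthest (difference -0.45, adjusted p = 0.0701), and Ncf1 of the oxidase did not meet that limit. Cybb and Cyba, the membrane subunits of the oxidase, were the 2 brightest of the list and differed by -0.29 (adjusted p = 0.469) and -0.07 (adjusted p = 0.647). The 8 partners of Slamf7 in engulfment were all measured above the background, and none passed (1 lower at an unadjusted p under 0.05, median difference -0.01). Tyrobp, the signaling chain DAP12, read 17.38 and 17.27 as means of d3 and d7 (adjusted p = 0.662), and Itgam, the CD11b chain of Mac-1 by which the cells were enriched, 17.13 and 17.10 (adjusted p = 0.662).

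**Figure D3:**
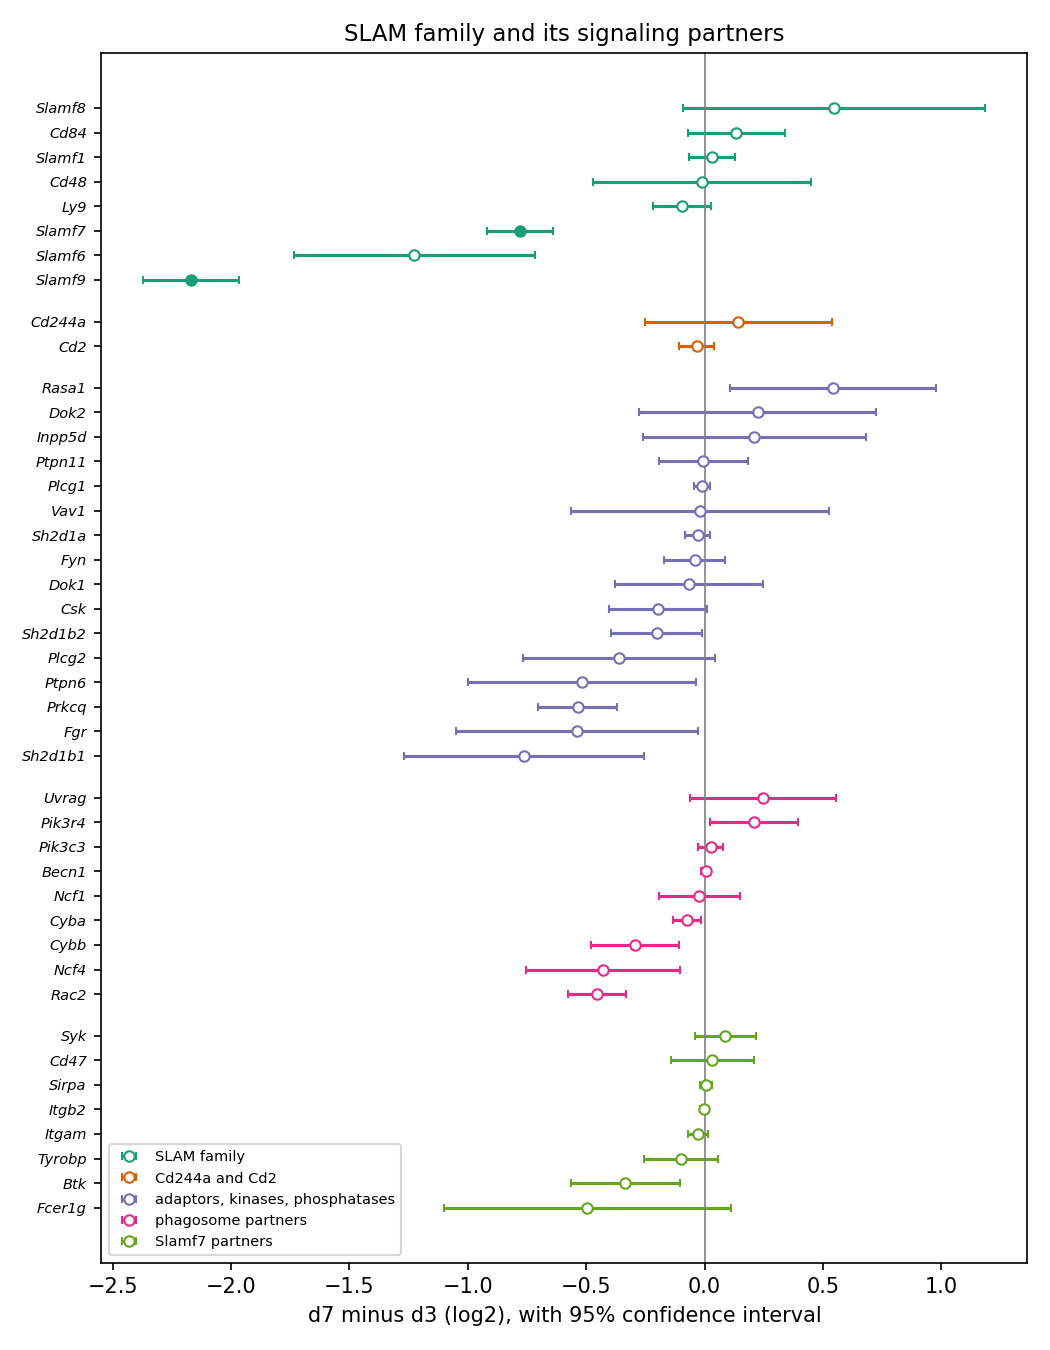
Log2 difference of d7 minus d3 (x axis) with its 95% confidence interval for the SLAM family genes and 4 lists of partners (y axis, 1 row for each gene). Filled points have an adjusted p under 0.05, which holds for Slamf9 and Slamf7 and for no partner.

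The genes whose pattern over the 7 arrays lay nearest to that of Slamf9 were sought among 8653 genes, those above the background that are not predicted genes, small RNAs or receptor segments, by the distance between values centred on each gene's own mean. They were Ly6c2, a surface marker of inflammatory monocytes (distance 0.596), Lipg, which encodes endothelial lipase (0.604), Pilrb1 (0.633), Cd300e (0.657) and Pilrb2 (0.725), the last 3 being activating receptors of myeloid cells. All 5 had every d3 array above every d7 array, the pattern they were chosen for. Ly6c2 read 17.94, 18.05 and 17.36 on d3 and 15.97, 15.38, 16.04 and 15.67 on d7, and its arrays varied more within a day than those of Slamf9. Pilrb1 was the tightest on d7, with 11.40, 11.23 and 11.17 on d3 and 9.53, 9.57, 9.60 and 9.42 on d7. Chosen for this pattern, the 5 genes are described without a test.

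**Figure D4:**
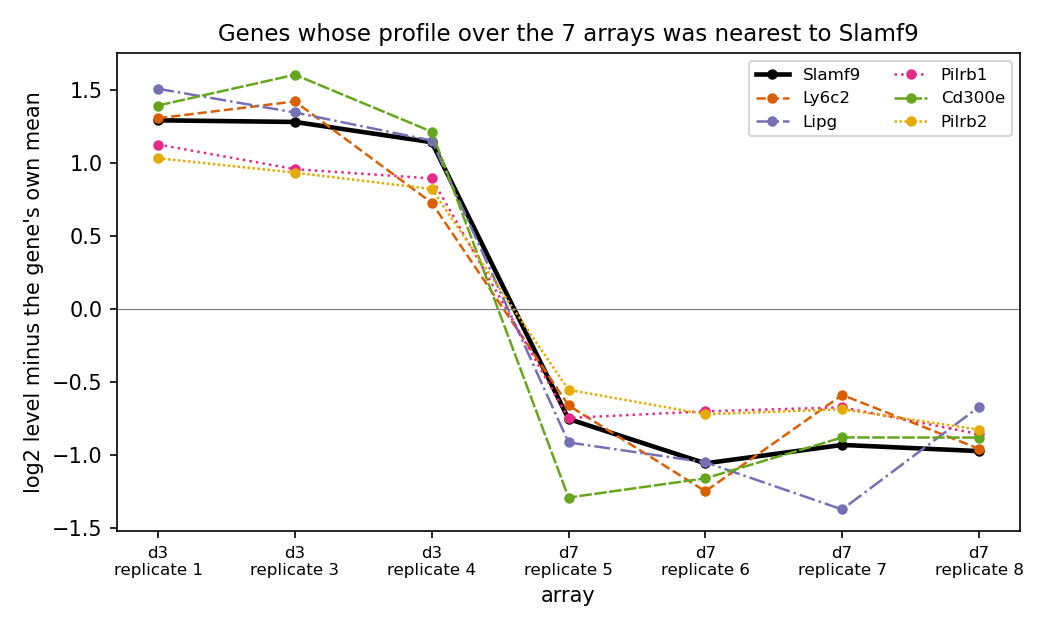
Log2 level minus the gene's own mean (y axis) on each of 7 arrays (x axis) for Slamf9 and the 5 genes nearest to it, with lines joining the values of 1 gene. All 6 genes lie above their mean on d3 and below it on d7, and the smallest distance to Slamf9 is that of Ly6c2, 0.596.

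Markers of other cells were read beside these values. Of 8 listed monocyte markers 7 were measured, all above the background, with a median difference of -0.98, and none passed. For 5 of them the days did not overlap, where over all probe sets this held for 6%. Of the 5 markers, 4 were lower on d7 and 1 was higher, F13a1, a clotting factor subunit named after its values were seen (difference 1.07, 95% confidence interval 0.68 to 1.46, adjusted p = 0.143). The log2 of the summed monocyte level ran from 18.32 to 18.84 on d3 and from 17.58 to 17.81 on d7, the same direction as Slamf9, Slamf7 and Slamf6. This sum mostly follows its 2 brightest probe sets and does not stand for the whole list. They were Fn1, which encodes fibronectin (difference -0.20, adjusted p = 0.662), and Ly6c2 (difference -2.02), named above for its likeness to Slamf9. The part of monocyte content in the fall of the SLAM genes was not tested. Of 12 neutrophil markers 6 were above the background and 1 passed, Retnlg, with means of 11.21 on d3 and 6.36 on d7 (adjusted p = 0.0432), while the defining marker Ly6g was at the background. By mean, 6 of the 12 were higher on d7 and 5 were lower, a count that includes the background readings. At an unadjusted p under 0.05, met by 7.66% of all probe sets, 0 were higher and 3 were lower. The lower ones were Retnlg, Mmp8 and Csf3r. S100a8 read 12.06 on d7 replicate 6, against 9.76, 10.62 and 10.18 on d7 replicates 5, 7 and 8. S100a9 (10.95) and Cxcr2 (8.31) also had their highest value on d7 replicate 6. Retnlg, Mmp8 and Csf3r, the other markers above the background, had theirs on a d3 array. The summed neutrophil level ran from 13.75 to 14.05 on d3 and from 12.91 to 13.82 on d7, and its part was not tested either. None passed in the remaining lists. Above the background were 2 of 6 plasmacytoid dendritic cell markers (Tcf4 and Cox6a2), 2 of 8 of conventional dendritic cells (Ccr7 and Batf3), 3 of 5 of platelets (Pf4 and Ppbp the 2 brightest), 0 of 7 of mast cells and basophils and 0 of 7 of fibroblasts. In the lymphoid lists the genes above it were Il7r, the interleukin-7 receptor (means of 10.43 and then 11.28, adjusted p = 0.271), and Cd79b, a chain of the B cell receptor complex (6.32 and 6.40, adjusted p = 0.690).

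Genes lying between the outermost members on chromosome 1 were read for the same contrast. RefSeq places 43 genes from Ly9 to Slamf8, of which 31 were measured, 8 of them the members. Of the 23 others 13 were above the background and none passed (4 at an unadjusted p under 0.05, 2 of them lower, against 7.66% of all probe sets at that limit). Their differences ran from -0.54 to 0.60 with a median of 0.02. The nearest measured neighbours of Slamf9 are Pigm, an enzyme of lipid anchor synthesis, and Igsf9, an adhesion protein of the immunoglobulin superfamily. Pigm read 7.57, 7.55 and 7.40 on d3 and 7.55, 7.55, 7.57 and 7.55 on d7, so the days overlapped. Igsf9 read 6.04, 6.03 and 6.05 on d3 and 5.69, 5.45, 5.43 and 5.43 on d7, all lower and close to the background (difference -0.54, adjusted p = 0.114). All 4 d7 values of Igsf9 were thus under the 3 d3 values, without passing. Vsig8, measured next to Slamf8 and likewise of the immunoglobulin superfamily, read 5.53, 5.50 and 5.35 on d3 and 6.03, 6.03, 6.27 and 5.89 on d7 (difference 0.60, adjusted p = 0.186). Vangl2, next to Slamf6, was at the background (4.00 on every array).

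**Figure D5:**
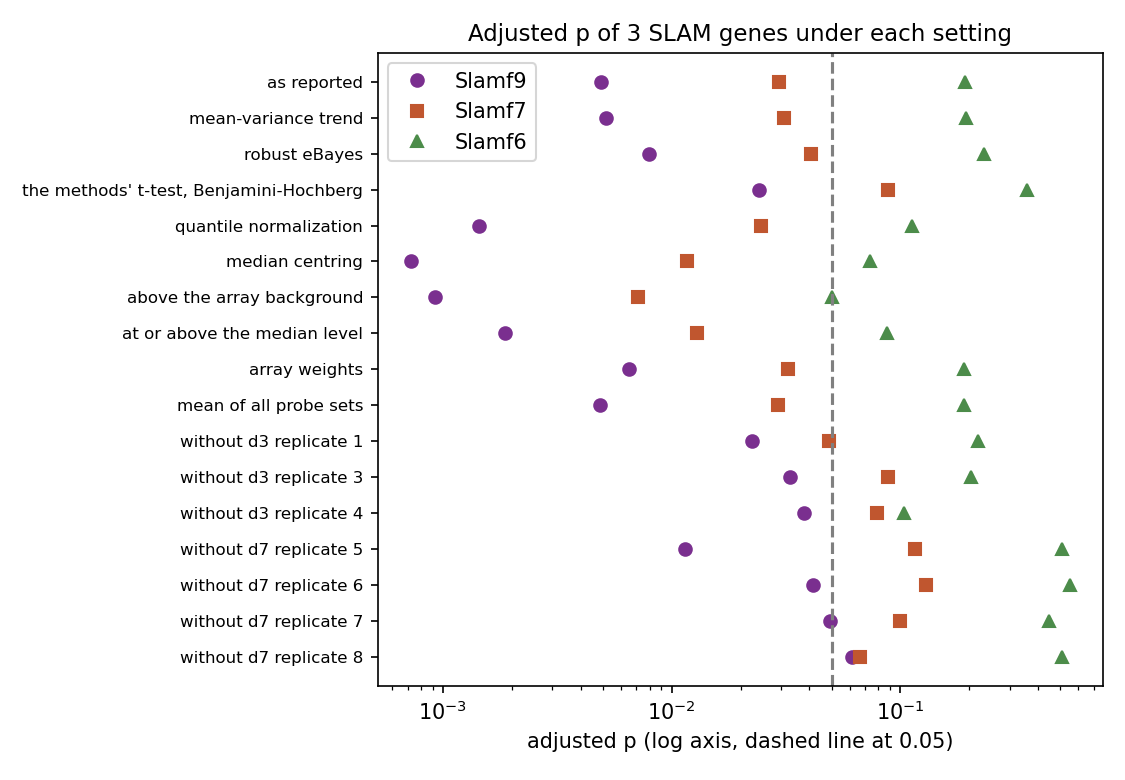
Adjusted p on a log axis (x axis) of Slamf9, Slamf7 and Slamf6 under the reported setting, 9 other ways of processing and with each of 7 arrays left out (y axis), with a dashed line at 0.05. Slamf9 lies left of the line everywhere but without d7 replicate 8 (0.0614), and Slamf6 never does.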

How the data were processed

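RNA of F4/80+ CD11b+ wound macrophages was amplified, biotin labelled and hybridized by the authors to Affymetrix mouse transcriptome arrays. The deposited values are log2 probe set levels, and the submitters' processing notes name Affymetrix Expression Console. The normalization between arrays and the genome build are not given in the sources used here. Per the labels the samples are biological replicates, and p-values measure only the spread between these 7 arrays, whose number limits the precision. Array controls (6732) were left out, and 30638 of the 65956 other probe sets have 1 gene symbol in the platform annotation.

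The days were compared with limma 3.58.1 (R 4.3.3) by a two-sided moderated test without covariates. The p-values were adjusted over every probe set tested (Benjamini-Hochberg, threshold 0.05). The fit was tested on simulated data. Folds were computed from log2 differences of d7 minus d3. A gene at or under 5.39 on average is called at the background. The alternatives were quantile normalization, median centring, 2 filters on level, array weights, a trended and a robust prior, the methods' t-test, the mean of a gene's probe sets, and leaving out single arrays.

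The members and all gene lists were chosen with earlier results of these data known. Named were all members and up to 4 genes of each other list that passed. Where none passed, the 2 with the highest mean were named (among markers, those above the background). Also named were the 5 genes nearest to Slamf9 and locus genes next to a member (small RNAs, and Tma7-ps next to Cd48, are not printed). The adaptors, Cd3e, Ly6g, S100a8, S100a9, Cxcr2, Mmp8, Csf3r, Rac2, Ncf4, Ncf1 and Pik3r4 were named after their values were seen. RefSeq promoters (GRCm38.p6) were searched with Python 3.11.15, and pandas 2.3.3 and matplotlib 3.10.9 drew the plots.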

Additional observations from a re-analysis of the deposited data

Results flagged for a closer look

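Among the 4 d7 arrays, 1 array stood apart from the other 3 for 3 of the 8 members by Dixon's criterion at the 95% level, which chance alone meets in about 1 in 20 groups of normally spread values. In this table it was met by 30.7% of all probe sets tested and by 27% of those above the background, so the members' share is read as no result about them. Slamf1 read 3.75 on d7 replicate 8, against at most 3.67 on the others, all of them background readings. Cd84 read 15.28 on d7 replicate 8, against 15.09 to 15.11. Ly9 read 12.48 on d7 replicate 6, against 12.62 on each of the other 3. In each gene the other 3 arrays had nearly the same value, which makes a small gap stand out, and many probe sets of the table repeat a value between arrays (7 different values in 12129 of 65956). None of these 3 genes passed the comparison of days.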

How the results depend on the processing

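Slamf9 stayed lower on d7 with an adjusted p under 0.05 in all 9 other ways of processing that give one (log2 difference -2.17 to -2.14) and in 6 of 7 subsets with 1 array left out. Of those 9 ways only quantile normalization, median centring and array weights could move the difference, and the others change just its p. The mean of a gene's probe sets left the members' values as they were, each having 1 probe set. Slamf7 kept its call in 8 of the 9 and in 1 of 7 subsets, and lost it with the methods' t-test after Benjamini-Hochberg adjustment (0.0880). Slamf9, Slamf7 and Slamf6 passed the methods' t-test before adjustment. Slamf6 passed no test after adjustment, and its adjusted p from limma came to 0.0501 among probe sets above the background. No gene of the partner lists passed the t-test after adjustment. Members passing numbered 1 with the adjusted t-test and 0 to 2 with 1 array left out. They numbered 2 without d3 replicate 1, 0 without d7 replicate 8 and 1, Slamf9, without any of the other 5. Cd48 turned to 0.02 with quantile normalization and 0.009 with median centring, and ran from -0.23 to 0.14 with 1 array left out, as Slamf1 ran from -0.002 to 0.061.

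Probe sets passing numbered 77, and 3652 by the unadjusted t-test, 13 after its adjustment, 169 with quantile normalization, 223 with median centring, 374 above the background, 208 at or above the median level and 1 to 212 with 1 array left out. The highest was without d3 replicate 1 and the lowest without d7 replicate 8. The level filters test fewer probe sets, and otherwise the cause was not tested. No paired analysis was possible because the labels give the d3 and d7 samples different replicate numbers. Signal over background limits Slamf1, and the unknown normalization of the deposited values limits each small difference.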
